A study of Bos taurus with 60 samples.

Results

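The miR-193 and miR-365 microRNAs (miRNAs) of bovine liver are described here through the 5 mature miRNAs bta-miR-193a-3p, bta-miR-193a-5p, bta-miR-193b, bta-miR-365-3p and bta-miR-365-5p. They were chosen by name, not by their values, from 1030 known mature miRNAs in the count tables. The count tables come from sequenced liver small RNA of 60 steers, with 20 from each of purebred Angus, purebred Charolais and Kinsella Composite (KC), a crossbred population of Angus, Charolais or hybrid bulls and a hybrid dam line. In each breed 6 steers were labelled low-RFI, 6 high-RFI and 8 carried no RFI label, where residual feed intake (RFI) is the intake beyond that predicted from growth and body weight and a low value means an efficient animal. All were males castrated after birth, born in the same spring, kept at the same ranch and finished on barley grain and silage with a rumensin supplement, and they were slaughtered at mean ages that differed among the breeds. Within each breed the study gives a higher mean slaughter age for low-RFI than for high-RFI steers, a difference it did not call significant. Age was not a term in the RFI comparisons made here. The 12 steers with an RFI label were picked within a breed for extreme RFI and also for miRNA expression resembling that of the other steers, so the spread in these groups is that of a selected set. Steers shared sires, with 6 sires over the 12 labelled Angus, 5 over the Charolais and 9 over the KC steers (1 KC steer carries a sire identifier of another form, which may stand for an unrecorded sire), and RFI groups compared within a breed were therefore partly made of different families.

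An miRNA is cut from a hairpin precursor whose 5p and 3p arms can each yield a mature strand, usually one of them kept by the Argonaute protein and the other degraded. The kept strand finds messenger RNAs mainly through its seed, bases 2 to 8 from the 5′ end, and lowers their translation and stability. In vertebrate genomes a miR-193 hairpin lies beside a miR-365 hairpin at a pair of paralogous loci. The miR-193b and miR-365 locus is best known for its induction during brown adipocyte differentiation in the mouse, and miR-193 family members are also known as growth-restraining miRNAs in tumours.

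The mature sequences are shown because the family relations and the separation of reads between members rest on them. They come from the study's list of 588 known bovine miRNAs, are written 5′ to 3′, and carry the seed in capitals.
bta-miR-193b: aACUGGCCcacaaagucccgcuuu
bta-miR-193a-3p: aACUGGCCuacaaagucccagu
bta-miR-365-3p: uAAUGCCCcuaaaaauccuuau
bta-miR-193a-5p: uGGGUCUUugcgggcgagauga
bta-miR-365-5p: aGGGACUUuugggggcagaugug
The seed ACUGGCC was shared by bta-miR-193a-3p and bta-miR-193b and by no other of the 588 miRNAs. Each of the other seeds belonged to a single miRNA of that list. Over the 22 bases of bta-miR-193a-3p, the differences to bta-miR-193b were U9C, A20G and G21C, written as the miR-193a-3p base, the position from the 5′ end and the miR-193b base. No member lay within 1 mismatch of another of these 588 miRNAs over at least 18 aligned bases, and 3 mismatches separated the nearest pair, bta-miR-193a-3p and bta-miR-193b. Known miRNAs outside that list were not compared. GC content ran from 31.8% in bta-miR-365-3p to 59.1% in bta-miR-193a-5p.

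In the gene order of the RefSeq annotation of ARS-UCD2.0, MIR193B and MIR365-1 are neighbours, and only MIR2333 lies between MIR365-2 and MIR193A. The submitters' processing notes name another build, UMD3.1, so no coordinates are given. Reads of bta-miR-365-3p were listed under both MIR365 hairpins, and the paired counts differed in 6 of 60 steers, by at most 1. The values of bta-miR-365-3p are therefore the mean of what is in effect 1 set of reads, and the part of each locus cannot be separated. bta-miR-365-5p was listed for the first of these hairpins alone. A separate row for a MIR193A-2 hairpin, which lies elsewhere in that annotation, held 0 counts in 54 steers and 1 count in 6, and bta-miR-2333 held 1 read in 1 steer.

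Counts over all known miRNAs, with several precursors of a mature miRNA averaged, totalled 1930859 to 6759381 per steer, with medians of 3720336 for Angus, 4405876 for Charolais and 5547018 for KC. The ranges of the breeds overlapped in depth, and the comparisons were also fitted with libraries thinned to equal depth. Breed and age at slaughter cannot be told apart here. Levels are in CPM, the counts of a miRNA after every library is scaled to the same size, with library sizes corrected by the trimmed mean of M-values (TMM) over the 60 steers, and each read stands for a whole mature miRNA, so that length does not enter. How well each sequence was captured by the library preparation was not measured, and differences between miRNAs are differences in reads. The hepatocyte markers bta-miR-122 and bta-miR-885 were present in every breed, summing to 5387 to 17387 CPM per steer, and the mesenchymal list led by bta-miR-143 summed to 117576 to 369916 CPM, with both maxima in 1 Charolais steer without an RFI label. The hepatocyte sum was nearly all bta-miR-122, which alone ran from 5361 to 17372 CPM. The erythroid list summed to 3513 to 14485 CPM, the leukocyte list to 2869 to 5083 CPM, the endothelial list to 13866 to 20715 CPM, the biliary list to 111 to 367 CPM and the muscle list to 20.1 to 59.7 CPM. In tissue of this kind, fewer cells of a type and less RNA per cell cannot be told apart.

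bta-miR-193b was the most abundant member and ranked 50th of 1030 by mean level, at 736 ± 132 CPM (SD, n = 60). Its level over the 60 steers ran from 426 to 1022 CPM, with a median of 724 CPM, from 1321 to 5649 reads per steer. bta-miR-365-3p followed at 187 ± 40.3 CPM, with a range of 128 to 349 CPM and 287 to 1620 reads. bta-miR-193a-3p, which has the same seed as miR-193b, stood at 34.8 ± 7.60 CPM, with a range of 14.8 to 52.2 CPM and 49 to 248 reads.
The 5p strands were the rarest. bta-miR-193a-5p had 6.36 ± 1.93 CPM, with a range of 2.41 to 12.3 CPM and 6 to 59 reads, and bta-miR-365-5p had 1.88 ± 0.776 CPM, with a range of 0.518 to 3.50 CPM and 2 to 20 reads. No member was at 0 in any steer, but bta-miR-365-5p had 3 reads or fewer in 8 of 60 steers, and 3 reads corresponded to 0.457 to 1.51 CPM depending on the library. The ranges of neighbouring members in this order did not overlap, apart from those of bta-miR-193a-5p and bta-miR-365-5p, although bta-miR-193a-5p was the higher in each of the 60 steers. Coefficients of variation over the 60 steers were 18% for bta-miR-193b, 21.6% for bta-miR-365-3p, 21.8% for bta-miR-193a-3p, 30.4% for bta-miR-193a-5p and 41.2% for bta-miR-365-5p, so that the spread was widest where the reads were fewest.

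**Figure D1:**
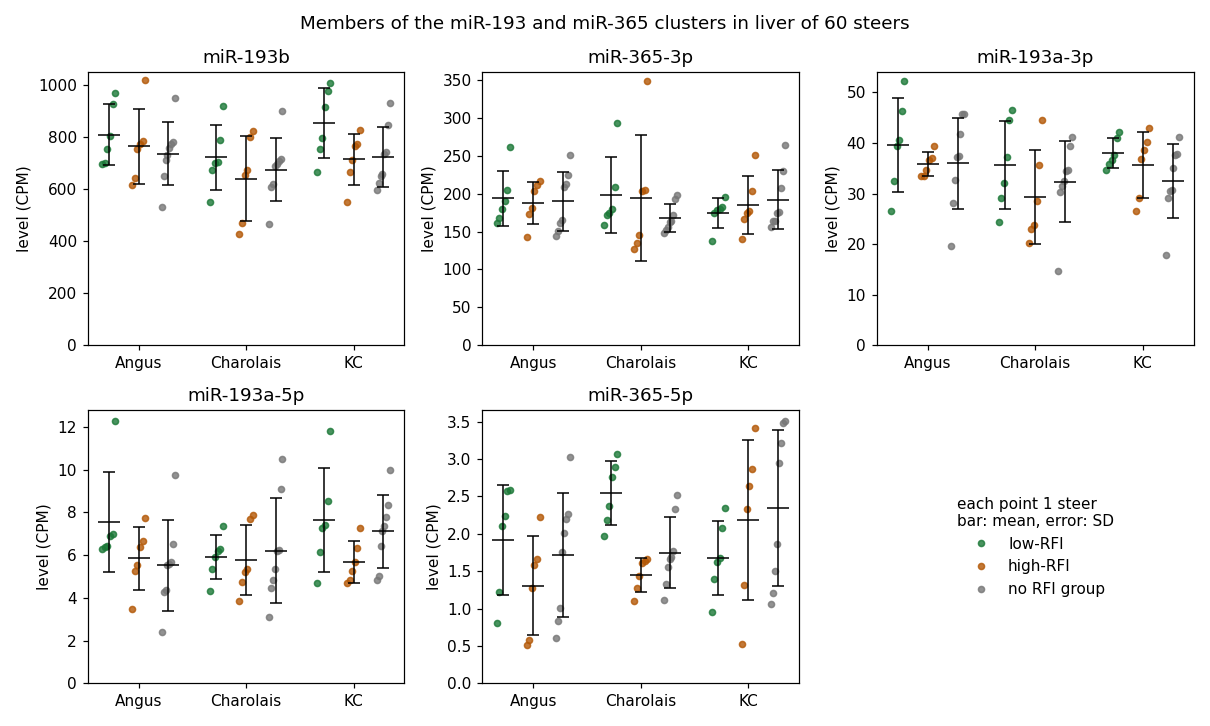
Level of each member in CPM (vertical axes, from 0) by breed (horizontal axis) and RFI label (colour). Each point is 1 steer, horizontal bars are means and error bars SDs of 6 or 8 steers; miR-193b lies at 426 to 1022 CPM and miR-365-5p at 0.518 to 3.50 CPM, and the only member whose low-RFI and high-RFI points do not overlap is miR-365-5p in Charolais.

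Of the summed reads of the 5 members, bta-miR-193b made up 76.0 ± 3.99% (SD, n = 60), bta-miR-365-3p 19.5 ± 3.74%, bta-miR-193a-3p 3.62 ± 0.665%, bta-miR-193a-5p 0.660 ± 0.173% and bta-miR-365-5p 0.199 ± 0.0857%. The members together reached 1003 ± 142 CPM in the Angus, 905 ± 167 CPM in the Charolais and 989 ± 134 CPM in the KC steers (n = 20 per breed). By breed, the share of bta-miR-193b was 76.4 ± 3.12%, 75.0 ± 4.53% and 76.6 ± 4.18% in the same order.

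The 3p strand was the major product for miR-193a and for miR-365. No 5p strand of miR-193b was among the members, so the arms of that hairpin were not compared. For miR-365 the 3p reads cannot be separated by locus and the 5p strand was listed for the first hairpin alone. Its 5p share is therefore not that of a single hairpin. The 5p strand held 15.7 ± 4.76% of the reads of the miR-193a arms (SD, n = 60) and 1.01 ± 0.421% of those of the miR-365 arms. The lowest miR-193a 5p share was 8.54%, or 17 of 199 reads, in a Charolais steer of the low-RFI group (95% exact Clopper-Pearson interval 5.06% to 13.3%). The highest was 29.5%, or 26 of 88 reads, in a Charolais steer without an RFI label (20.3% to 40.2%). For miR-365 the lowest share was 0.322%, or 2 of 622 reads, in an Angus steer of the high-RFI group (0.0390% to 1.16%), and the highest 2.08%, or 20 of 962 reads, in a KC steer without an RFI label (1.27% to 3.19%). The 3p strand had more reads than the 5p strand in all 60 steers for both miR-193a and miR-365. These intervals cover counting error only, since amplified reads without molecular identifiers are not independent molecules.

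By breed, the miR-193a 5p share averaged 14.4 ± 4.19% for Angus, 16.2 ± 5.41% for Charolais and 16.6 ± 4.54% for KC (SD, n = 20 per breed), and the miR-365 5p share was 0.850 ± 0.354%, 1.06 ± 0.343% and 1.13 ± 0.512%. On the log2 scale of the 5p to 3p ratio, KC exceeded Angus by 0.22 (standard error, SE, 0.15) for miR-193a and by 0.29 (0.19) for miR-365, with adjusted p-values of 0.309 and 0.304 from limma over 29 arm pairs. Neither arm ratio was called between any breeds at an adjusted p below 0.05, where 0.0% of the 29 arm pairs were called for Charolais and Angus, 6.9% for KC and Angus and 6.9% for KC and Charolais. None of these 6 member comparisons had an unadjusted p below 0.05 either, against 10.3%, 27.6% and 24.1% of arm pairs in the same order. Between RFI groups 0.0% of arm pairs were called in each breed, and an unadjusted p below 0.05 was found for no member and for 6.9% of arm pairs in Angus, 10.3% in Charolais and 3.45% in KC. For miR-365 in Charolais the 5p share was 0.934% to 1.71% in low-RFI and 0.408% to 1.29% in high-RFI steers, so that the groups overlapped. The log2 difference of the arm ratio was 0.60 (SE 0.31, adjusted p = 0.486, limma). The exact permutation test of the same log2 ratio gave an unadjusted p = 0.0325, two-sided, the smallest of the 6 tests of an arm ratio between RFI groups.

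**Figure D2:**
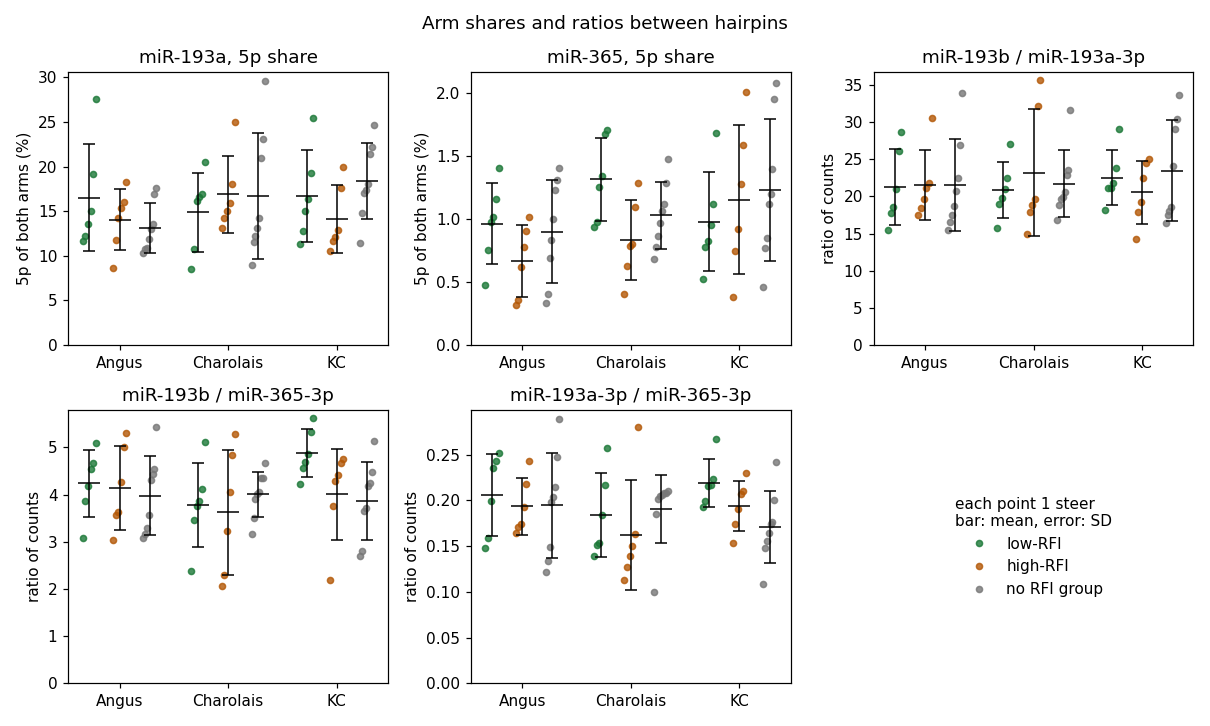
Share of 5p reads in percent of both arms (upper left and centre) and ratios of counts between hairpins (other panels) by breed and RFI label. Each point is 1 steer, bars are means and error bars SDs; all vertical axes start at 0, the miR-193a 5p share lies at 8.54% to 29.5% and the miR-365 5p share at 0.322% to 2.08%.

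Between the paralogues with a common seed, bta-miR-193b was the more abundant in all 60 steers. bta-miR-193b had 14.3 to 35.7 times the reads of bta-miR-193a-3p in individual steers, and the ratio averaged 21.5 ± 5.20 for Angus, 21.9 ± 5.60 for Charolais and 22.3 ± 5.17 for KC (SD, n = 20 per breed). Of the reads carrying the seed ACUGGCC, 95.4 ± 0.931% were bta-miR-193b (n = 60). bta-miR-193b had 4.05 ± 0.850 times the reads of bta-miR-365-3p, with a range of 2.07 to 5.61, and bta-miR-193a-3p had 0.190 ± 0.0430 times those of bta-miR-365-3p, with a range of 0.100 to 0.289. Over 18 comparisons of these 3 log2 ratios between RFI groups or breeds, none had an adjusted p below 0.838, and none an unadjusted p below 0.05. The smallest unadjusted value was that of miR-193b to miR-365-3p in KC, where the ratio was 4.22 to 5.61 (median 4.78) in low-RFI and 2.18 to 4.76 (median 4.35) in high-RFI steers. The mean log2 ratio was 2.28 in the low-RFI and 1.96 in the high-RFI group, a difference of 0.32 (SE 0.18, exact permutation test, two-sided p = 0.0584, adjusted p = 0.838).

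The RFI comparison asked whether efficient and inefficient steers of a breed differed in the members' levels. In edgeR's quasi-likelihood fits 0 of 5 members had an adjusted p below 0.05 in any breed, as had 0.0% of the 373 miRNAs tested in Angus, 0.0% of the 373 tested in Charolais and 0.0% of the 385 tested in KC. At an unadjusted p below 0.05, 2 of the 15 comparisons passed, bta-miR-365-5p in Charolais and bta-miR-193b in KC, against 4.02% of all miRNAs tested in Angus, 5.36% of those tested in Charolais and 4.42% of those tested in KC. The likelihood-ratio test and DESeq2 each gave 1. Both called 1 of 385 miRNAs in KC at an adjusted p below 0.05, which was no member. By the rule of the study, an unadjusted p below 0.05 with a fold change above 1.5, 1 member was named, bta-miR-365-5p in Charolais. That rule named 2.68% of the miRNAs tested in Angus, 2.41% in Charolais and 1.82% in KC. The study had already named bta-miR-365-5p as higher in low-RFI Charolais by this rule, from its own likelihood-ratio fit. Its fold change and p-value differed from those given here, and both come from the same sequenced animals, so they are not independent results. In low-RFI relative to high-RFI steers, the fitted difference was positive for all 5 members in Angus and in Charolais and for 3 of 5 in KC, against 52.5%, 49.9% and 59.0% of all miRNAs tested, and its median over the members was 0.14, 0.14 and 0.09 on the log2 scale against 0.01, 0.00 and 0.03.

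Among the 3p strands, bta-miR-193b ran from 697 to 972 CPM (median 780) in low-RFI and from 618 to 1022 CPM (median 765) in high-RFI Angus, and from 549 to 922 CPM (median 703) and 426 to 823 CPM (median 663) in Charolais. These groups overlapped over most of their range, with log2 fold changes of 0.10 (SE 0.12, adjusted p = 0.957, edgeR) in Angus and 0.14 (0.17, adjusted p = 0.986, edgeR) in Charolais, and of 0.05 and -0.32 with sire as a block (adjusted p = 0.998 and 0.735, edgeR). In KC it ran from 667 to 1008 CPM (median 856) in low-RFI and from 549 to 827 CPM (median 739) in high-RFI steers. There 3 of 6 low-RFI steers lay above every high-RFI steer and 2 high-RFI steers below every low-RFI steer. The log2 fold change was 0.25 (SE 0.12, unadjusted p = 0.0455, adjusted p = 0.905, edgeR), and the exact permutation test gave p = 0.0801, two-sided. With sire as a block it was 0.49 (SE 0.26, unadjusted p = 0.109, adjusted p = 0.934, edgeR), a fit with 2 residual degrees of freedom in which 1 low-RFI and 3 high-RFI steers shared a sire. In these KC steers the leukocyte markers summed to 3833 to 5083 CPM in low-RFI and 3432 to 3998 CPM in high-RFI steers, and their part in the difference was not tested. Relative to the library total, bta-miR-193b had a negative rank correlation over the 20 KC steers (Spearman's rho = -0.54, permutation p = 0.015, adjusted p = 0.225 over 15 relations; Pearson's r = -0.48, permutation p = 0.0351), while the totals of the low-RFI and high-RFI KC steers had medians of 5418509 and 5485226. The sign was the same in the other breeds, at rho = -0.46 in Angus (permutation p = 0.0462, adjusted p = 0.346) and -0.37 in Charolais (permutation p = 0.104, adjusted p = 0.52).

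bta-miR-193a-3p ran from 26.6 to 52.2 CPM (median 40.1) in low-RFI and from 33.4 to 39.4 CPM (median 35.7) in high-RFI Angus. The low-RFI group thus spread on both sides of the high-RFI group, and the log2 fold change was 0.14 (SE 0.14, adjusted p = 0.957, edgeR). In Charolais it ran from 24.4 to 46.5 CPM (median 34.6) and from 20.3 to 44.6 CPM (median 26.1), and in KC from 34.7 to 42.1 CPM (median 37.2) and from 26.6 to 42.9 CPM (median 37.6). The corresponding log2 fold changes were 0.26 (0.21, adjusted p = 0.973, edgeR) and 0.09 (0.12, adjusted p = 0.994, edgeR), and both turned negative with sire as a block, at -0.18 and -0.19, while the Angus value became 0.33 (SE 0.24, adjusted p = 0.896, edgeR).

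bta-miR-365-3p, the major strand of the miR-365 hairpins, had the fitted differences nearest to 0 in Angus and Charolais, and in KC that of bta-miR-193a-3p was nearer. It ran from 161 to 261 CPM (median 186) in low-RFI and from 143 to 216 CPM (median 192) in high-RFI Angus, and from 159 to 294 CPM (median 177) and 128 to 349 CPM (median 174) in Charolais. In KC it ran from 137 to 195 CPM (median 179) and from 140 to 252 CPM (median 176). Each pair of groups overlapped, and the log2 fold changes were 0.05 (SE 0.12), 0.01 (0.22) and -0.09 (0.13), with adjusted p-values of 0.964, 0.986 and 0.994 (edgeR). With sire as a block, the Angus and Charolais values were 0.32 and -0.38, with adjusted p-values of 0.806 and 0.777 (edgeR).

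Of the 5p strands, bta-miR-193a-5p ran from 6.31 to 12.3 CPM (median 6.67) in low-RFI and from 3.49 to 7.76 CPM (median 5.96) in high-RFI Angus. All low-RFI steers lay above the high-RFI median, 1 of them at 12.3 CPM and the rest at 6.31 to 6.99 CPM, and 3 high-RFI steers lay below every low-RFI steer. The log2 fold change was 0.40 (SE 0.23, adjusted p = 0.957, edgeR). It was 0.23 with sire as a block (SE 0.36, unadjusted p = 0.541, adjusted p = 0.970, edgeR), 0.21 without the low-RFI steer at 12.3 CPM and 0.23 without the high-RFI steer at 3.49 CPM. In KC it ran from 4.69 to 11.8 CPM (median 7.33) in low-RFI and from 4.72 to 7.26 CPM (median 5.47) in high-RFI steers, where 4 of 6 low-RFI steers lay above every high-RFI steer and 1 below all of them. The log2 fold change was 0.42 (0.21, adjusted p = 0.905, edgeR). With sire as a block it rose to 1.09 (SE 0.26, unadjusted p = 0.00695, adjusted p = 0.669, edgeR), a value carried by the sire with steers in both groups, whose low-RFI steer had 11.8 CPM and whose 3 high-RFI steers had 4.84, 6.33 and 5.28 CPM. The 4 steers of that sire without an RFI label had 7.77, 8.33, 7.35 and 10.01 CPM, between these values. In Charolais the groups ran from 4.34 to 7.37 CPM (median 6.05) and from 3.84 to 7.86 CPM (median 5.30), with a log2 fold change of 0.03 (0.21, adjusted p = 0.986, edgeR).

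bta-miR-365-5p, the minor strand, was the only member to separate RFI groups. In Charolais it had 2.76, 2.89, 2.37, 1.97, 3.06 and 2.18 CPM in the low-RFI steers and 1.28, 1.10, 1.61, 1.43, 1.67 and 1.64 CPM in the high-RFI steers, so that every low-RFI steer lay above every high-RFI steer. The same was true of 0.268% of the 373 miRNAs tested in Charolais, that is, of this miRNA alone, and of 0.268% and 0.26% of those tested in Angus and KC. Groups that did not overlap in either direction made up 0.536% in Angus and the same shares as before in the other breeds. The low-RFI steers averaged 2.54 ± 0.428 CPM and the high-RFI steers 1.45 ± 0.228 CPM (SD, 6 steers per group). The fitted log2 fold change was 0.73, or 1.66-fold (SE 0.24, unadjusted p = 0.00720, adjusted p = 0.727, edgeR). The exact permutation test over all relabelings of the 12 steers gave p = 0.00216, two-sided, which is the smallest this design allows, and an adjusted p of 0.803 over the 371 miRNAs it covered.

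The values behind it were few. The low-RFI Charolais steers had 7, 14, 10, 9, 12 and 8 reads and the high-RFI steers 4, 6, 8, 6, 9 and 9, and these raw counts overlapped, with library totals at a median of 4068319 in low-RFI and 5113839 in high-RFI steers. Over all Charolais steers 3 reads corresponded to 0.545 to 1.33 CPM. With every library thinned to 1930856 counts the log2 fold change was 0.77 (SE 0.45, unadjusted p = 0.103, adjusted p = 0.929, edgeR), and it no longer passed the rule of the study. With sire as a block it was 1.01 (0.59, unadjusted p = 0.110, adjusted p = 0.526, edgeR). That fit compares RFI groups within 1 sire, by which 1 low-RFI steer had 2.76 CPM, 4 high-RFI steers had 1.10 to 1.61 CPM and 3 steers without an RFI label had 1.56 to 1.77 CPM. The other low-RFI steers were by 3 sires that had no high-RFI steer, and the other high-RFI steers were both by 1 sire that had no low-RFI steer. The 8 Charolais steers without an RFI label had 1.12 to 2.52 CPM, with a median of 1.68 CPM.

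**Figure D3:**
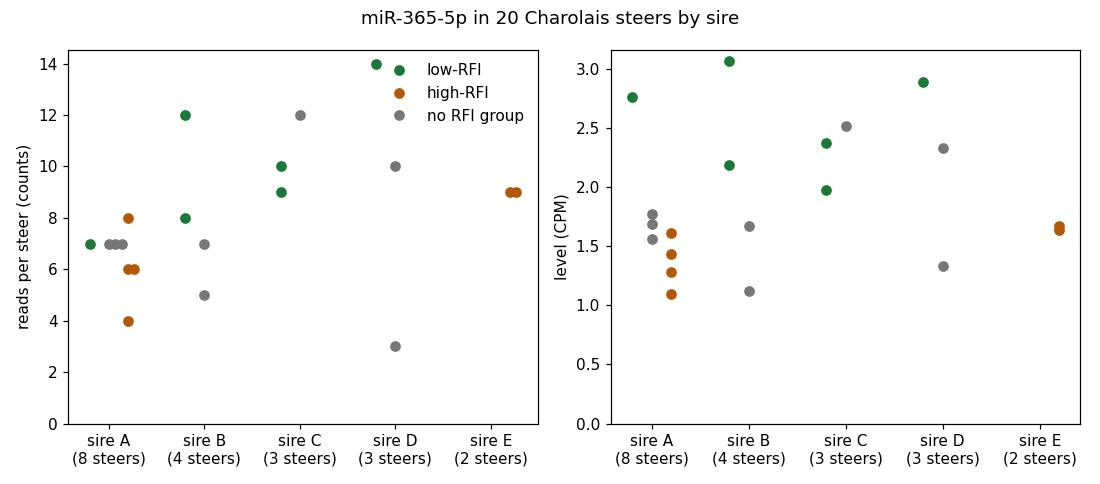
bta-miR-365-5p in the 20 Charolais steers by sire (horizontal axes, sires lettered by family size) as reads (left, equal counts set side by side) and as CPM (right), coloured by RFI label. In CPM all 6 low-RFI steers lie above all 6 high-RFI steers, while the reads of the groups, 7 to 14 and 4 to 9, overlap, and 1 sire alone has steers in both groups.

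In the same steers bta-miR-122, a hepatocyte marker, ran from 7742 to 12316 CPM (median 8961) in low-RFI and from 6181 to 8319 CPM (median 7457) in high-RFI Charolais, with a log2 fold change of 0.32 (SE 0.13, unadjusted p = 0.0253, adjusted p = 0.727, edgeR). With bta-miR-885 added, the hepatocyte list summed to 7788 to 12342 CPM and 6206 to 8354 CPM, nearly all of it bta-miR-122. These values therefore do not show whether bta-miR-885 also differed. The muscle markers, at low levels, summed to 27.5 to 59.7 CPM and 20.1 to 35.8 CPM. Whether bta-miR-122 or the muscle markers moved with bta-miR-365-5p for a common reason was not tested.

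In the other breeds the groups overlapped. In Angus bta-miR-365-5p ran from 0.806 to 2.59 CPM (median 2.17, 3 to 11 reads) in low-RFI and from 0.518 to 2.23 CPM (median 1.43, 2 to 10 reads) in high-RFI steers, with a log2 fold change of 0.45 (SE 0.36, adjusted p = 0.957, edgeR). In KC it ran from 0.951 to 2.34 CPM (median 1.65) in low-RFI and from 0.531 to 3.42 CPM (median 2.48) in high-RFI steers, and the high-RFI group held both the highest and the lowest value. The KC log2 fold change was -0.35 (0.34, adjusted p = 0.994, edgeR), and -0.59 without the high-RFI steer at 0.531 CPM. With sire as a block the values were 0.90 in Angus (SE 0.65, unadjusted p = 0.187, adjusted p = 0.896, edgeR) and -0.88 in KC (SE 0.43, unadjusted p = 0.0926, adjusted p = 0.934, edgeR). In a fit of the 36 steers, the interaction of RFI group with breed had an unadjusted p = 0.0375 for bta-miR-365-5p and an adjusted p = 0.914 (edgeR), so the difference between breeds was not called, as for 0.0% of the 426 miRNAs tested. The other 4 members had unadjusted interaction p-values of 0.380 to 0.835. Taking the 3 breeds in that fit as 1 comparison, 0 of 5 members was called at an adjusted p below 0.05 against 0.235% of all miRNAs, 1 member against 3.52% had an unadjusted p below 0.05, none against 0.704% also had a fold change above 1.5, and 4 of 5 against 46.2% had a fitted difference above 0. The unadjusted p was 0.0353 for bta-miR-193a-5p at a log2 fold change of 0.27 (SE 0.12, adjusted p = 0.830, edgeR), and the other members lay between -0.04 and 0.20.

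Between breeds, the members differed little. With all 60 steers in the fit of edgeR, 0 of 5 members was called at an adjusted p below 0.05 for Charolais and Angus, where 2.77% of 397 miRNAs were called, for KC and Angus, where 13.6% were, and for KC and Charolais, where 17.9% were. At an unadjusted p below 0.05, 2 of 15 member comparisons passed by edgeR and by the likelihood-ratio test and 1 by DESeq2, against 18.6%, 27.7% and 29.2% of all miRNAs in the 3 comparisons by edgeR. The fitted difference was above 0 for 1 of 5 members in Charolais against Angus, 2 of 5 in KC against Angus and 4 of 5 in KC against Charolais, and for 47.9%, 50.6% and 48.9% of all miRNAs. Both of the edgeR comparisons below 0.05 concerned bta-miR-193b in Charolais. It ran from 531 to 1022 CPM (median 757) in Angus, from 426 to 922 CPM (median 693) in Charolais and from 549 to 1008 CPM (median 750) in KC, so that the ranges overlapped almost wholly. Charolais differed from Angus by -0.18 on the log2 scale (SE 0.08, unadjusted p = 0.0320, adjusted p = 0.219, edgeR), and KC from Charolais by 0.16 (0.08, unadjusted p = 0.0470, adjusted p = 0.167, edgeR).

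bta-miR-193a-3p, with the same seed, ran from 19.7 to 52.2 CPM (median 37.1) in Angus, from 14.8 to 46.5 CPM (median 32.2) in Charolais and from 17.7 to 42.9 CPM (median 36.7) in KC. Its Charolais difference to Angus was -0.19 (SE 0.10, adjusted p = 0.320, edgeR). bta-miR-365-3p had medians of 186, 172 and 177 CPM in Angus, Charolais and KC, and its 3 fitted differences lay between -0.04 and 0.00, each with an SE of 0.09. bta-miR-193a-5p had medians of 6.34, 5.65 and 6.78 CPM and differences between -0.06 and 0.18 with SEs of 0.13 to 0.14. bta-miR-365-5p had medians of 1.71, 1.68 and 1.97 CPM, and its largest difference was 0.29 for KC against Angus (SE 0.19, adjusted p = 0.336, edgeR). A p-value above the threshold does not show equal levels, and the SEs give only the precision of each difference.

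**Figure D4:**
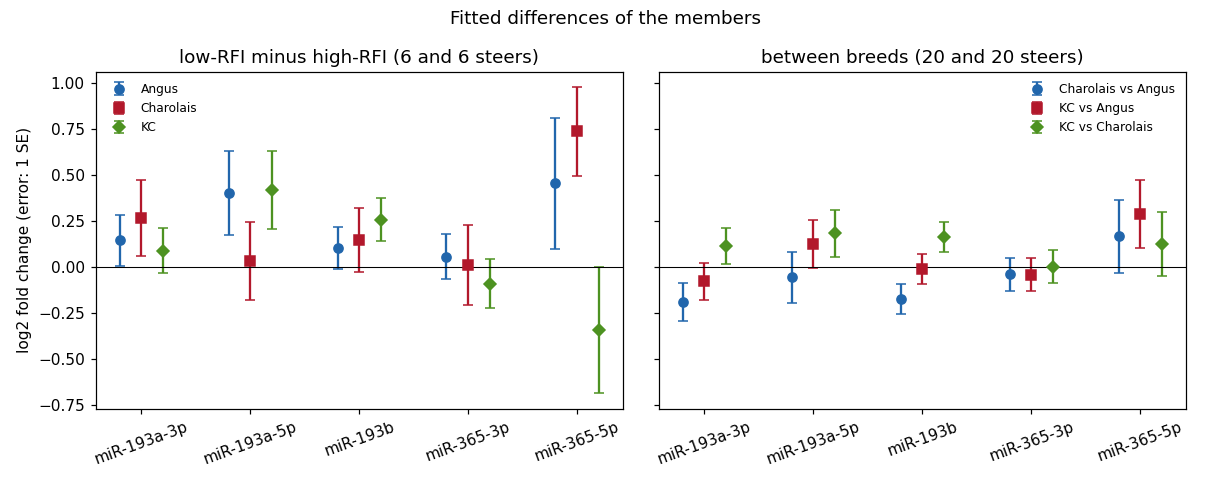
Fitted log2 fold changes of the 5 members with 1 SE on each side, for low-RFI minus high-RFI within each breed (left) and between breeds (right, the breed named first minus the other); the line marks 0. miR-365-5p in Charolais stands at 0.73 ± 0.24 (SE), the KC value of the same miRNA at -0.35 ± 0.34, and all differences between breeds lie between -0.19 and 0.29.

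Within a breed, the members tended to rise and fall together from steer to steer, but loosely. Of the 30 rank correlations between 2 members in 1 breed (20 steers each), 27 were above 0, with a median of 0.23 and a range of -0.17 to 0.59, whereas 52.5% of the 5880 relations of a member with another miRNA were above 0, with a median of 0.02. Spearman's permutation p was below 0.05 for 5 of the 30 and for 400 of the 5880. No relation had an adjusted p below 0.05 over all 5940, either by Spearman's rho, where the smallest was 0.178, or by Pearson's r. Members are counted in the same libraries and scaled by the same factor, so their values are not independent measurements.

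On average over the breeds, the 5p and 3p strands of miR-193a and those of miR-365 were not the closest pairs, although in Angus bta-miR-365-3p and bta-miR-365-5p shared the highest rho with bta-miR-193a-5p and bta-miR-193b. bta-miR-193a-3p and bta-miR-193a-5p had rho = 0.29 in Angus, 0.09 in Charolais and -0.17 in KC, averaging 0.07, and bta-miR-365-3p and bta-miR-365-5p had 0.56, 0.22 and 0.12, averaging 0.30. By this average, the 3p strand ranked 146th of 396 miRNAs for bta-miR-193a-5p and 9th of 396 for bta-miR-365-5p. These 5p strands had 6 to 59 and 2 to 20 reads per steer, and the part of counting error in their rho was not tested. Between members named for neighbouring hairpins, bta-miR-193b and bta-miR-365-3p had 0.37, 0.56 and 0.21, averaging 0.38, and bta-miR-193a-3p and bta-miR-365-3p had 0.25, 0.44 and 0.59, averaging 0.43. The same bta-miR-365-3p reads enter both of these pairs, since the part of each locus cannot be separated. The pair with a common seed, bta-miR-193a-3p and bta-miR-193b, which lie at different loci, had 0.23, 0.55 and 0.19, averaging 0.32, and the highest average after 0.43 was that of bta-miR-193a-5p with bta-miR-193b at 0.41. The largest single value was that of bta-miR-193a-3p with bta-miR-365-3p in KC (rho = 0.59, permutation p = 0.00794, adjusted p = 0.611; r = 0.42, permutation p = 0.0674), where r fell to 0.35 without the 2 steers farthest from the bta-miR-193a-3p median.

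**Figure D5:**
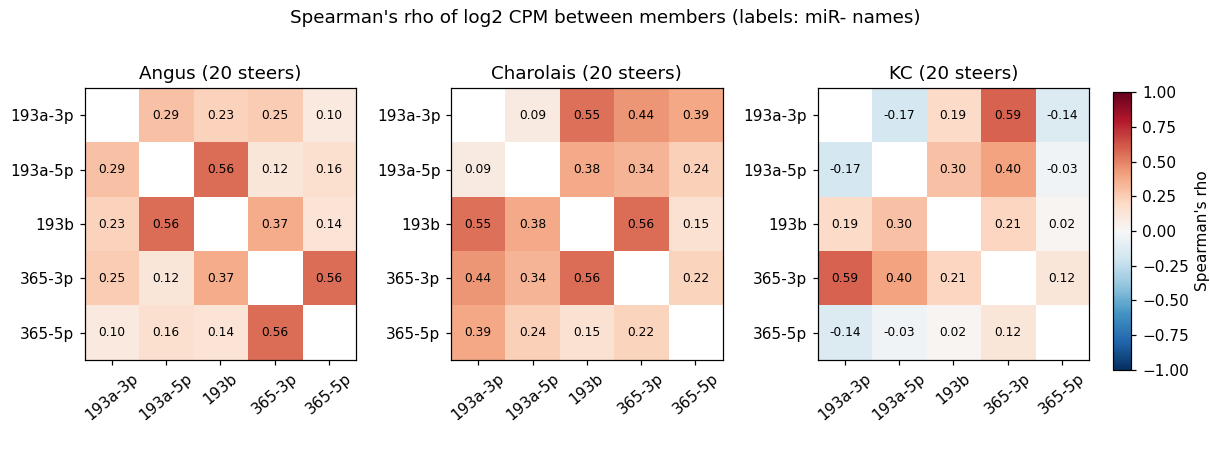
Spearman's rho of log2 CPM between members in the 20 steers of each breed, from -1 (blue) to 1 (red), with names given without their miR- prefix. Of the 10 pairs all are positive in Angus and Charolais and 7 in KC, with values from -0.17 to 0.59.

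For each member, the 3 miRNAs most alike over steers were ranked by rho averaged over the breeds, among 396 other miRNAs. bta-miR-30b-5p, a member of the miR-30 family, ranked highest for bta-miR-193b at an average of 0.53, followed by bta-miR-20a at 0.45 and bta-miR-22-5p at 0.45. It also ranked highest for bta-miR-193a-3p at 0.51, followed by bta-miR-19a at 0.46 and bta-miR-16a at 0.44, and came next for bta-miR-365-3p, 0.48, after bta-miR-483 at 0.50 and bta-miR-505 at 0.49. In Charolais bta-miR-193a-3p and bta-miR-30b-5p had r = 0.77 (permutation p = 8e-05, adjusted p = 0.158) and rho = 0.60 (permutation p = 0.00585, adjusted p = 0.611), and r was 0.49 without the 2 steers farthest from the median. For the 5p strands the leading miRNAs were others. bta-miR-574, bta-miR-22-5p and the member bta-miR-193b led for bta-miR-193a-5p at 0.42, 0.41 and 0.41, and bta-miR-122, bta-miR-30d and bta-miR-455-3p for bta-miR-365-5p at 0.44, 0.35 and 0.34. bta-miR-122 and bta-miR-365-5p had rho of 0.34 over the Angus, 0.55 over the Charolais and 0.43 over the KC steers. In the same order, bta-miR-365-5p had 0.215, 0.583 and 0.254 with bta-miR-30d and -0.047, 0.43 and 0.623 with bta-miR-455-3p, so an average can hide a breed without the relation. The miRNAs named here were picked as the highest of 396, and none of their relations had an adjusted p below 0.05 by permutation.

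Other miRNAs with roles near those of the cluster were read from a pair of lists. Of 14 miRNAs of brown adipocyte biology, 13 were in the files and 11 or 12 were tested in each comparison, and of 11 miRNAs of hepatic lipid metabolism all 11 were tested. None of either list was called between RFI groups in any breed at an adjusted p below 0.05 by edgeR. Between breeds, bta-miR-182 of the brown adipocyte list was higher in Charolais than in Angus (log2 fold change 0.47, SE 0.13, adjusted p = 0.0420, edgeR) and lower in KC than in Charolais (-0.37, 0.13, adjusted p = 0.0334, edgeR), and bta-miR-155 and bta-miR-455-3p were higher in KC than in Angus by 0.47 and 0.53. Of the lipid list, bta-miR-122 was higher in Charolais than in Angus by 0.29 (adjusted p = 0.0420, edgeR), and bta-miR-107 and bta-miR-370 were lower in KC than in Angus, at -0.13 and -0.68. Of the brown adipocyte list, 1 of 12 miRNAs tested was thus called in Charolais against Angus, 2 of 12 in KC against Angus and 1 of 12 in KC against Charolais, and of the lipid list 1, 2 and 0 of 11, where 2.77%, 13.6% and 17.9% of all miRNAs were called. In low-RFI against high-RFI steers the median log2 fold change of the brown adipocyte list was 0.10 for Angus, 0.13 for Charolais and 0.04 for KC, and that of the lipid list 0.04, -0.02 and 0.03, beside medians of 0.01, 0.00 and 0.03 over all miRNAs tested.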

How the data were processed

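Small RNA from liver was sequenced, and the authors trimmed adaptors (cutadapt 1.16), aligned reads to UMD3.1 with Bowtie 1.1.1 and counted known miRNAs with miRDeep2, per the submitters' processing notes and the study's methods. The deposited values are whole read counts per mature miRNA and precursor. Counts of several precursors were averaged, miRNAs under 1 CPM in too many steers were left out (at least 6 of 12 or 20 of 60 had to reach it), and TMM factors were computed. RFI groups and breeds were compared with the quasi-likelihood F test of edgeR 4.0.16 in R 4.3.3 with Benjamini-Hochberg adjustment over all miRNAs tested. Arm ratios were compared with limma 3.58.1, and single values with exact permutation over all relabelings or 100000 resamples. Levels are TMM-scaled CPM. Alternatives were DESeq2 1.42.0, a likelihood-ratio test, other filters and scalings, thinning, sire terms and each steer left out. On simulated data, 2-fold changes were recovered in 86.7% of cases in Angus, 87.2% in Charolais and 90% in KC, and 1.5-fold changes in 46.2%, 58.1% and 44%. Many miRNAs were changed at once there, in Angus 45 of 368 tested by 2-fold and 52 by 1.5-fold. The simulated spread was the same for all miRNAs, sires were left out, and the shares are averages over all levels. They are therefore not the power to detect a change of a single member in the real data. The members and lists were chosen with earlier results of these data known, and the genes named follow the members, their nearest miRNAs and the called members of the lists. P-values measure the spread between these steers, some of which share a sire. The sequencing pool of each steer was not used here.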

Additional observations from a re-analysis of the deposited data

Results flagged for a closer look

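Of 90 groups of 6 or 8 steers examined for a single steer far from the rest by Dixon's criterion, 8 had one. Chance gives about 1 in 20 for independent, normally distributed values. Here 45 of the groups are ratios of the same counts, and CPM and ratios were not transformed, so no excess can be read from this share. For bta-miR-193a-3p, 1 Charolais steer without an RFI label (replicate 7) had 14.8 CPM against 30.3 to 41.2 CPM in the other 7. The same steer had the lowest ratio of miR-193a-3p to miR-365-3p, 0.100 against 0.185 to 0.211, and the highest ratio of miR-193b to miR-193a-3p, 31.6 against 16.9 to 23.6. It also had the highest hepatocyte and mesenchymal marker sums of the 60 steers, 17387 and 369916 CPM, and their part in these values was not tested. Of that hepatocyte sum, 17372 CPM was bta-miR-122, so the sum gives no separate reading of bta-miR-885.

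For bta-miR-193a-5p, 1 low-RFI Angus steer (replicate 2) had 12.3 CPM against 6.31 to 6.99 CPM. For bta-miR-365-3p, 1 high-RFI Charolais steer (replicate 4) had 349 CPM against 128 to 206 CPM, and 1 low-RFI KC steer (replicate 2) had 137 CPM against 174 to 195 CPM. The ratio of miR-193a-3p to miR-365-3p was 0.280 in 1 high-RFI Charolais steer (replicate 5) against 0.113 to 0.163, and the ratio of miR-193b to miR-193a-3p was 30.6 in 1 high-RFI Angus steer (replicate 4) against 17.5 to 21.8.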

How the results depend on the processing

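No member was called between RFI groups or breeds, and no member arm ratio, at an adjusted p below 0.05 under any alternative run, each steer left out included. The 1 member named by the rule of the study, bta-miR-365-5p in Charolais, was 0 with at least 10 counts required in every steer, which removes it from the test, and 0 with libraries thinned to equal depth. It did not meet the rule with sire as a block either. A different member, bta-miR-193a-5p in KC, met it there, at a log2 fold change of 1.09 in a fit with 2 residual degrees of freedom. bta-miR-365-5p in Charolais stayed named with each of the 12 labelled Charolais steers left out in turn, with a log2 fold change of 0.65 to 0.82. Leaving out an Angus or KC steer does not touch that fit, and no other member was named with any of the 36 steers left out. With sire as a block, the RFI differences in Charolais became -0.18 for bta-miR-193a-3p, -0.32 for bta-miR-193b and -0.38 for bta-miR-365-3p, and that of bta-miR-193a-3p in KC became -0.19. The bta-miR-365-3p difference in Charolais was -0.004 by DESeq2 and -0.016 with 36 steers fitted together. Thinning gave -0.041 for bta-miR-193a-3p in KC, -0.23 for bta-miR-365-5p in Charolais against Angus, -0.30 and 0.46 for the miR-365 arm ratio in Charolais against Angus and in KC against Charolais, and an average rho of -0.10 for bta-miR-193a-5p with bta-miR-365-5p. With the 36 steers of the RFI groups, bta-miR-365-3p in Charolais against Angus was 0.042 and bta-miR-365-5p in KC against Charolais was -0.047. For KC against Charolais, bta-miR-365-3p was 0.0081 without the precursor pairs listed for KC alone and 0.017 with a sire correlation in limma, bta-miR-365-5p was -0.003 with that correlation, and the miR-365 arm ratio was 0.0081 without weights. The cause of these changes was not tested.

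Leaving out 1 steer at a time turned the sign of differences near 0. The ranges for RFI groups were -0.021 to 0.14 for bta-miR-193a-3p in KC, -0.063 to 0.14 for bta-miR-193a-5p in Charolais, -0.067 to 0.099, -0.15 to 0.26 and -0.20 to 0.022 for bta-miR-365-3p in Angus, Charolais and KC, -0.086 to 0.043 for it across breeds, and -0.37 to 0.071 for the miR-365 arm ratio in KC. Between breeds they were -0.12 to 0.0063 for bta-miR-193a-5p in Charolais against Angus, -0.053 to 0.012 for bta-miR-193b in KC against Angus, and, in KC against Charolais, -0.027 to 0.078 for bta-miR-365-3p, -0.0038 to 0.11 for the miR-193a and -0.085 to 0.057 for the miR-365 arm ratio. The replicate numbers used here only name steers and pair none, and the fits with sire as a block are those within families. Reads limit the 5p strands most, since bta-miR-365-5p had 2 to 20 reads per steer.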
